A study of Mus musculus with 8 samples.

Results

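Rpl22 is the ribosomal protein that carries the tag in the RiboTag method, and Rpl22l1 (Rpl22-like 1) is its paralog, encoded by a gene of its own. Both were taken by gene name: every probe of the arrays that is not a control and is named Rpl22 or Rpl22l1 in the scanner files. These were 2 of 35715 gene names, with 3 probes of 55681, 2 for Rpl22 and 1 for Rpl22l1, each printed as 1 spot per array. The arrays measured RNA that was pulled down with an anti-HA antibody from the hippocampus of naive adult mice at least 3 months old, 1 array per mouse, on 1-colour Agilent arrays. There were 4 WT mice, labelled Ctcf wild type, Camk2a-Cre positive and Ribotag positive, and 4 conditional knockout (CKO) mice, labelled Ctcf loxP/loxP with the same Cre and tag. Each group held 3 males and 1 female on the C57BL/6 background. The design text of the series describes the controls as loxP homozygotes instead, and the sample labels were followed. Since both groups carry the Cre and the tagged Rpl22 allele, which the labels write Rpl22-tsam1.1Psam/J, no mouse without the tag was compared here. Cre under Camk2a acts in forebrain excitatory neurons, so the tag marks ribosomes of those cells and not of the whole tissue.

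Rpl22 is a protein of the large ribosomal subunit that lies at the ribosome's surface and binds RNA. Mice live without it, and it is best known for its part in T cell development and for holding down the expression of Rpl22l1, which can take its place in the ribosome. In the RiboTag allele Cre swaps the last coding exon of Rpl22 for a copy that ends in haemagglutinin (HA) epitopes, placed just ahead of the stop codon. The transcript read by the arrays is therefore both the message of the bait and 1 of the messages that the bait can pull down.

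The probes are shown because their place in the transcript bears on what they read. The first 30 of the 60 bases of each are given 5′ to 3′, and capitals mark the stop codon, found as the stop triplet directly behind a run of in-frame codons for the acidic residues in which both proteins end.
Rpl22, stop-codon probe A_55_P2015989: ggaggaagacgaggatTAGgacacattggt
Rpl22, downstream probe A_52_P391718: gctgtaaacaacattaaccctgggttgatt
Rpl22l1, probe A_55_P2159026: cagagtctgaggacTAAttggcctctgctt
The first Rpl22 probe (transcript NM_001277114) lies at chr4:151706515-151706574 of the mouse build mm9 and has 16 bases ahead of the stop codon and 41 behind it. It straddles the point where the tag joins the protein in the recombined allele. The second (transcript NM_009079) lies at chr4:151708012-151708071, 1497 bases further along, in the 3′ untranslated part of the message. The Rpl22l1 probe (NM_026517) lies at chr3:28706237-28706296 and also crosses its stop codon, with 14 bases ahead of it and 43 behind. The sequence of the recombined allele was not used here, so the share of the Rpl22 signal that comes from tagged transcripts was not measured.

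A search for other probes that share a run of at least 20 bases with a member found 3, for both probes that cross a stop codon and none for the downstream Rpl22 probe. They are shown the same way, with capitals at the bases that differ from the member where the probes overlap, to show how close these copies are.
NAP017864-001, probe A_55_P2102698: gataAgaggaGgacgaggattaAgacacat
NAP093230-001, probe A_55_P1985495: gatgAgaAgaGgacgaAgattaggacacat
Gm15421, probe A_55_P2107357: gagCctgaggactaattggcctctgcttgt
NAP017864-001 and NAP093230-001 are unannotated transcripts that the files describe as unknown, placed at chrX:7615700-7615759 on the minus strand and chr11:14062438-14062497 on the plus strand (mm9). Each matched the Rpl22 stop-codon probe at 52 of 56 overlapping bases. Counted from the 5′ end of the Rpl22 probe, the differences were G1A, A7G, G19A and T27C for the copy on X and G1A, G4A, A7G and G13A for the copy on 11. In the lines of both copies, the bases ahead of the first capital lie outside the overlap and were not compared. T27C lies beyond the bases shown. Gm15421, a transcribed pseudogene at chr5:22034094-22034153 on the minus strand (mm9), matched the Rpl22l1 probe at 57 of 58 bases, with the single difference T6C. The files list the accession of Gm15421 under the Rpl22l1 probe itself, so the signals of Rpl22l1 and Gm15421 could not be told apart by these probes.

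Across the series 72.2% to 81.5% of probes were well above background on an array, lowest on CKO 3. Of the 3 slides, the first held WT 1 alone, the second WT 2 and WT 3 beside CKO 1 and CKO 2, and the third WT 4 beside CKO 3 and CKO 4. The first principal component held 52.9% of the variance and separated slide 3 from the other slides. It placed CKO 3 at 166, WT 4 at 62.3 and CKO 4 at 31.4, and the arrays of slides 1 and 2 between -82.8 and -14.6. Signal of Ctcf, the deleted gene, which encodes a DNA-binding protein that shapes chromosome loops, was lower in CKO by a log2 difference of -0.87 (SE 0.22) with groups that did not overlap, and its limma adjusted p was 0.738. Camk2a, whose promoter drives the Cre, was well above background on all 8 arrays, as were all 8 excitatory neuron markers looked for. Markers of other cells were read as well: 6 of 7 interneuron, 5 of 6 astrocyte, 6 of 6 oligodendrocyte, 6 of 6 microglia, 5 of 5 endothelial and 4 of 5 choroid plexus genes passed the filter on dim probes. Passing was common, since 44316 of the 55663 probes used passed that filter. Of 17479 tested genes named through RefSeq, 15847, members left out, were well above background on all 8 arrays. The marker counts therefore do not tell which cells the RNA came from. Precision is limited throughout by having 4 arrays a group, and fewer cells of a type and less RNA per cell cannot be told apart in such samples.

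All member probes gave signal well above background on all 8 arrays. Values below are log2 signal minus the 75th percentile of the array, so 0 is the level of a probe at that percentile. For the Rpl22 stop-codon probe they were 1.52, 1.52, 1.56 and 1.84 in WT 1 to 4 and 1.75, 1.81, 2.37 and 1.75 in CKO 1 to 4. All 4 CKO mice lay above WT 1, WT 2 and WT 3, CKO 3 stood well above the rest, and WT 4 reached into the CKO range. The group means were 1.61 ± 0.15 (SD, n = 4) in WT and 1.92 ± 0.30 (SD, n = 4) in CKO.

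The downstream Rpl22 probe gave 0.80, 0.36, 0.38 and 1.08 in WT 1 to 4 and 0.47, 0.81, 1.47 and 0.98 in CKO 1 to 4. Here the groups overlapped widely, with WT 4 above 3 of the CKO mice and CKO 1 below WT 1. The means were 0.65 ± 0.35 (SD, n = 4) in WT and 0.93 ± 0.42 (SD, n = 4) in CKO. Rpl22l1 gave 2.71, 2.46, 2.43 and 3.00 in WT 1 to 4 and 2.78, 2.80, 3.52 and 3.03 in CKO 1 to 4, with means of 2.65 ± 0.27 (SD, n = 4) and 3.03 ± 0.35 (SD, n = 4). As with the Rpl22 stop-codon probe, and unlike the downstream probe, the CKO mice lay above WT 1 to 3, WT 4 lay among them, and CKO 3 was highest. Levels of different probes were not set against each other, since each probe binds its target with its own strength.

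**Figure D1:**
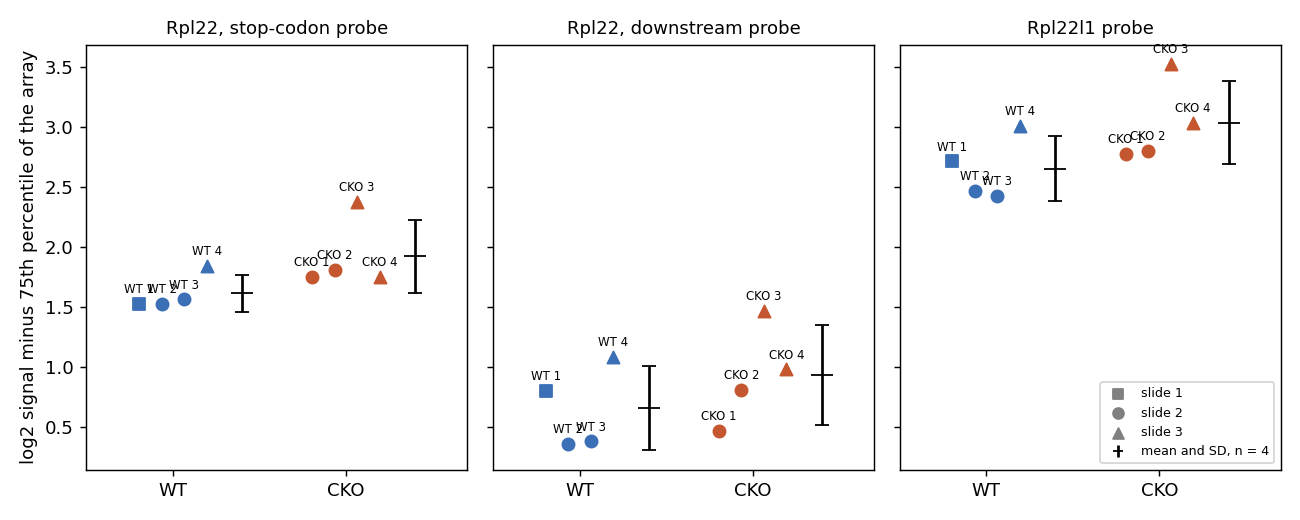
Log2 signal minus the 75th percentile of the array (y axis) for the 3 member probes in each WT and CKO mouse; shapes mark the slide, and the bar gives the mean and SD of 4 mice. CKO 3 is the highest array for every probe, and WT 4, on the same slide, is the highest WT array and overlaps the CKO mice.

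No member passed the test between genotypes. The Rpl22 stop-codon probe had a log2 difference of 0.31 (SE 0.19), which is 124% of the WT signal with a 95% interval from 91.4% to 167% (limma adjusted p = 0.738). The downstream Rpl22 probe had 0.28 (SE 0.26), or 121% with an interval from 80.6% to 182% (limma adjusted p = 0.748). Rpl22l1 had 0.38 (SE 0.22), or 130% with an interval from 91.7% to 185% (limma adjusted p = 0.738). All 3 intervals include no difference, and their upper ends are as far as these arrays can bound a higher level. Exact two-sided permutation tests over the 70 splits of the 8 mice gave p = 0.114, 0.343 and 0.114 in the same order, where 4 against 4 cannot go below 0.0286. By limma 0 of all 44316 probes had an adjusted p under 0.05, which is 0%, and 2362, 5.33%, had an unadjusted p under 0.05. The groups did not overlap for 3.28% of probes and for 0 of the 3 member probes.

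CKO 3, the array with the fewest probes above background, weighed most on these differences. Without it they were 0.16 and 0.097 for the Rpl22 stop-codon and downstream probes and 0.22 for Rpl22l1, all still above 0. Within slide 2 (WT 2, WT 3, CKO 1 and CKO 2) the values were 0.24, 0.27 and 0.34, and within slide 3 (WT 4, CKO 3 and CKO 4) 0.22, 0.14 and 0.27. Slide 1 held 1 WT array alone. Slide 3 has a single WT mouse, whose spread was assumed to be that of the other arrays. The scaling also mattered, since the median difference of all probes was -0.096 with 75th percentile scaling, 0.048 with median scaling and -0.0100 with quantile normalization. Relative to that median the 3 differences were 0.40, 0.37 and 0.48 with both percentile scalings, 0.22, 0.25 and 0.26 with quantile normalization, and 0.23, 0.23 and 0.20 with the authors' deposited values.

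**Figure D2:**
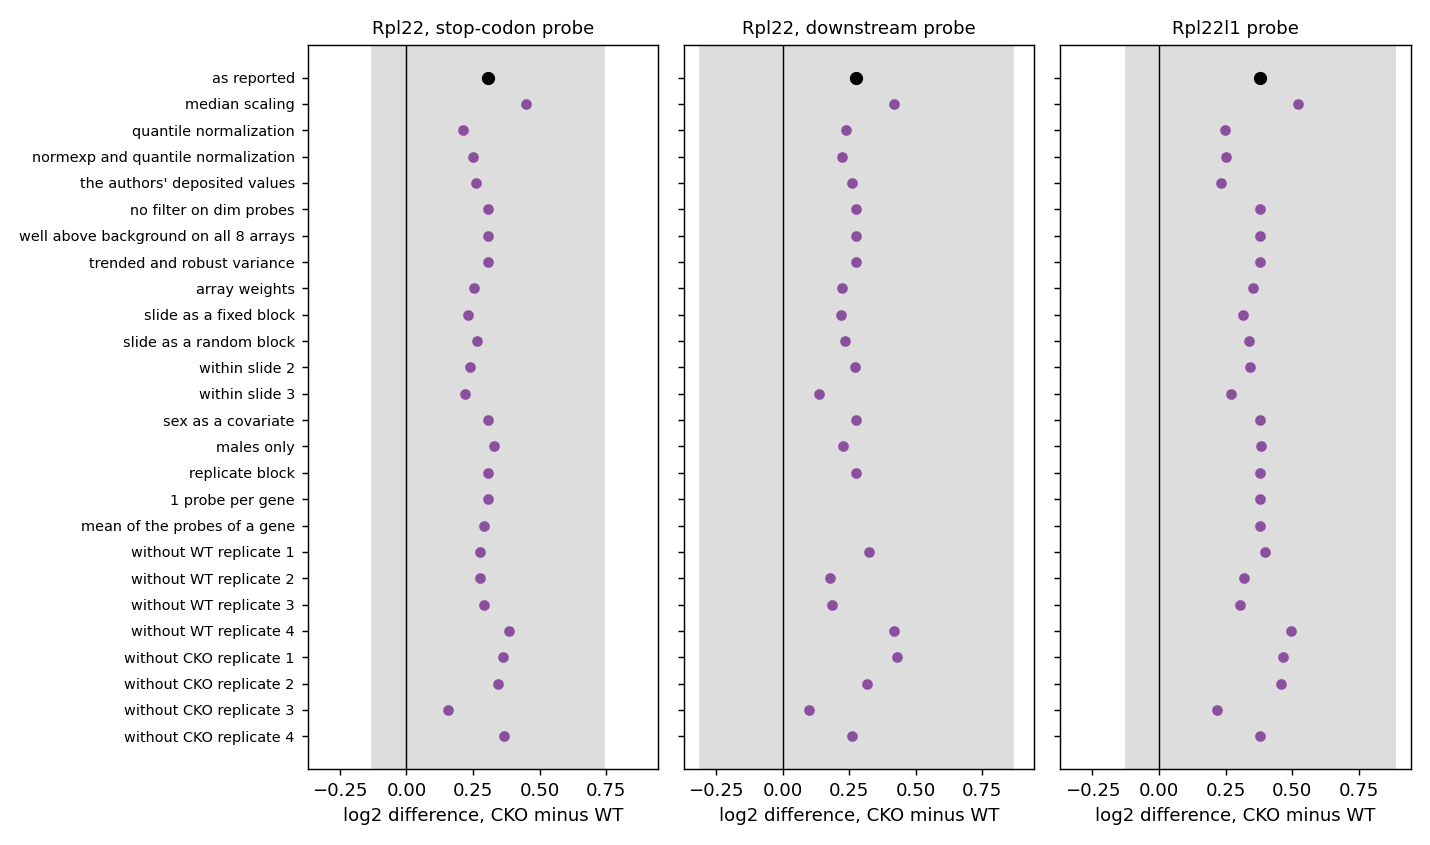
Log2 difference between CKO and WT (x axis) of the 3 member probes under each processing setting (y axis); the grey band is the 95% interval of the reported value. Every setting run left the difference above 0, and leaving out CKO replicate 3 gave the lowest value for each probe.

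The near copies also had positive differences that did not pass the test. NAP017864-001 differed by 0.14 (SE 0.17) and NAP093230-001 by 0.33 (SE 0.32). Gm15421, the Rpl22l1 pseudogene copy, differed by 0.26 (SE 0.19), with values of 2.24, 2.15, 1.98 and 2.54 in WT 1 to 4 and 2.46, 2.23, 2.80 and 2.46 in CKO 1 to 4. Groups overlapped for all 3, and their limma adjusted p lay between 0.738 and 0.775. The residual spread within groups of the Rpl22 stop-codon probe, 0.24, was below that of most probes (24.1th percentile), while the downstream probe stood at 0.38 (57.7th percentile) and Rpl22l1 at 0.31 (41.2th percentile).

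Differences taken within an array do not change with a single scaling factor per array and ask whether the messages moved unequally. Rpl22l1 minus the Rpl22 stop-codon probe was 1.19, 0.94, 0.87 and 1.16 in WT 1 to 4 and 1.03, 0.99, 1.15 and 1.28 in CKO 1 to 4. The groups overlapped, and the CKO mean exceeded the WT mean by 0.073 (exact two-sided permutation p = 0.514). It ran from 0.015 without WT 3 and 0.017 without CKO 4 to 0.11 without WT 4 or CKO 2 and 0.12 without WT 1, and was 0.041 without WT 2. The value was -0.027 with the authors' deposited values, so no direction is given. The Rpl22 stop-codon probe minus the downstream probe, a comparison across the tag's position added after the probes were seen, was 0.73, 1.16, 1.18 and 0.76 in WT 1 to 4 and 1.28, 1.00, 0.91 and 0.77 in CKO 1 to 4. The genotypes differed by 0.031 (exact two-sided permutation p = 0.857). The mice of slide 2 ran from 1.00 to 1.28 and those of slide 3 from 0.76 to 0.91, without overlap. How many other probe pairs separate these slides was not counted, so the separation is not read as particular to the tag's position. WT 1, alone on slide 1, was at 0.73.

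Rpl22 and Rpl22l1 signal varied together over the 8 mice. The stop-codon probe of Rpl22 and the Rpl22l1 probe had a Pearson r of 0.93 (exact permutation p = 0.00268, adjusted p = 0.00536 over 6 relations) and a Spearman rho of 0.79 (exact permutation p = 0.0279, adjusted p = 0.0419). Without CKO 3 and WT 2, the mice farthest from the Rpl22 median, r was 0.74 (exact permutation p = 0.0889), short of the threshold in the 6 mice left. It was 0.81 without CKO 3 alone (exact permutation p = 0.0367) and 0.92 without WT 2 alone (exact permutation p = 0.00794). With the downstream Rpl22 probe r was 0.95 (exact permutation p = 3.97e-04, adjusted p = 0.00164) and rho 0.93 (exact permutation p = 0.00223, adjusted p = 0.0134), and r was 0.86 without the same pair (exact permutation p = 0.0264). After removal of genotype means r was 0.89 and 0.96 for these relations, and after removal of slide means 0.96 and 0.88. No r was taken within a slide, since the slides held 1, 4 and 3 arrays and 6 were required.

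The points share the array, its scaling and the first principal component, and other messages followed the members as closely. Over 15847 genes well above background on all arrays and named through a RefSeq accession of their probe, the median r with Rpl22 was 0.21, and over the 68 of the 77 ribosomal protein genes that also had such a name it was 0.73. For Rpl22l1 these medians were 0.26 and 0.66. No median was taken over genes of like signal, so the part of signal level in these values was not tested. The genes most like Rpl22 by Pearson r over the 8 arrays were Naf1, a factor of H/ACA RNP assembly, at 0.99, then Ccdc92b, Gpat4, Spg7 and Mras, each at 0.99. Those most like Rpl22l1 were Vps35l, Ccdc115, Rtl8c, Pttg1 and Ubn1, with r from 0.98 to 0.99. None of these 10 is a ribosomal protein, and they are the top of 15847 genes ranked over 8 points.

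The 2 Rpl22 probes had an r of 0.83 with each other (exact permutation p = 0.00603, adjusted p = 0.00904; rho 0.83, exact permutation p = 0.0154, adjusted p = 0.0308), and 0.51 without CKO 3 and WT 2 (exact permutation p = 0.281). Rpl22l1 and Gm15421 had an r of 0.95 (exact permutation p = 5.46e-04, adjusted p = 0.00164; rho 0.83, exact permutation p = 0.0154, adjusted p = 0.0308), and 0.83 without CKO 3 and WT 3 (exact permutation p = 0.0444). Their probes match at 57 of 58 bases and may read the same RNA, so this r cannot show that separate messages varied together. The Rpl22 stop-codon probe had an r of 0.82 with NAP017864-001 and 0.79 with NAP093230-001 (exact permutation p = 0.0497 and 0.0265, adjusted p = 0.0497 and 0.0318; rho 0.43 and 0.52, exact permutation p = 0.299 and 0.197, adjusted p = 0.299 and 0.236). Without CKO 3 and WT 2 these fell to -0.44 and 0.024 (exact permutation p = 0.367 and 0.949), so both rested on those mice.

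**Figure D3:**
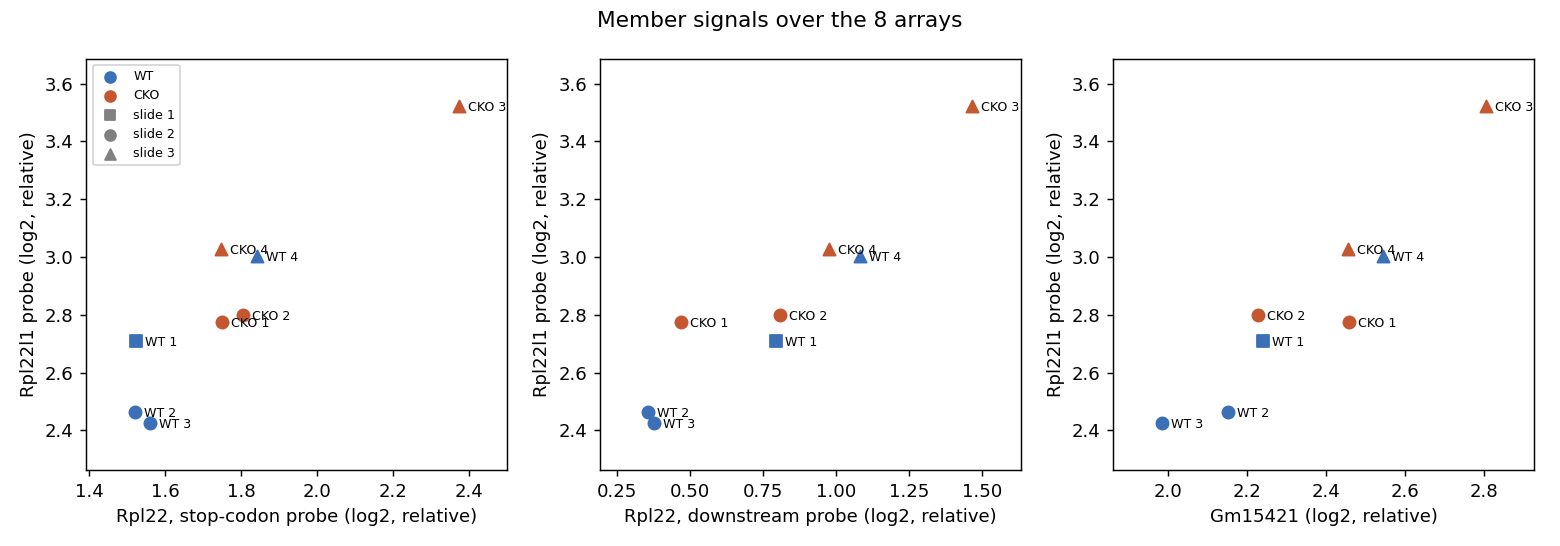
Log2 signal minus the 75th percentile of the Rpl22l1 probe (y axes) against both Rpl22 probes and the Gm15421 probe (x axes), 1 point per mouse; colours give the genotype and shapes the slide. CKO 3 lies at the upper right of each panel and WT 2 and WT 3 at the lower left. The Gm15421 and Rpl22l1 probes may read the same RNA.

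The other proteins of the cytosolic ribosome gave the members their setting. Of 78 genes listed for both subunits, 77 were tested, 45 of the large and 32 of the small subunit. None passed the limma threshold over all probes, against a background of 0% of genes. At an unadjusted limma p under 0.05, 10 were higher and 0 lower, where 2.33% of all genes were higher and 2.69% lower. These counts are for 75th percentile scaling, and the shares were not taken over genes of like signal. The median log2 difference of the 77 genes was 0.26, and 75 of 77 had a difference above 0. Over all 29529 genes the median was -0.078, with 41.5% above 0. Differences followed signal on these arrays: of the 7888 genes at least as bright as the dimmest member probe 70.3% were above 0, with a median of 0.14. With quantile normalization 69 of 77 were above 0, against 55.4% of those bright genes, with medians of 0.13 and 0.030. With the authors' deposited values 64 of 77 were, against 51.0%.

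By array the median signal of the 77 genes ran from 3.07 to 3.33 in WT and from 3.36 to 3.58 in CKO, with WT 4 highest in WT and CKO 3 highest in CKO. The groups did not overlap with 75th percentile scaling, and they overlapped under each of the other 4 scalings. Oligodendrocyte markers also had array medians that did not overlap at 75th percentile scaling. The median of the 6 genes ran from 0.93 to 1.07 in WT and from 1.14 to 1.63 in CKO. Their median difference was 0.14, with 5 of 6 genes above 0. Markers of excitatory neurons, the tagged cells, had a median difference of 0.21 with 6 of 8 above 0. Their array medians overlapped, from 2.21 to 2.60 in WT and from 1.98 to 2.63 in CKO. As background, 41.5% of all genes and 70.3% of the bright genes were above 0. Choroid plexus markers had a median difference of 0.32 over 4 genes, 3 of them above 0, and array medians that overlapped, from -0.0033 to 0.77 in WT and from 0.30 to 0.89 in CKO. Of these Ttr, the thyroid hormone carrier, differed by 1.16 (SE 0.36) and Kl by 0.43 (SE 0.17), each with groups that did not overlap and a limma adjusted p of 0.738. Folr1, at 0.21 (SE 0.25), and Otx2, at -0.15 (SE 0.26), had groups that overlapped, and Aqp1 did not pass the filter on dim probes. Of all probes tested, 3.28% had groups that did not overlap. Astrocyte markers had a median difference of 0.32 with 4 of 5 above 0 and array medians from 0.010 to 0.58 in WT and from -0.23 to 0.75 in CKO. Interneuron markers had 0.26 with 5 of 6 above 0, microglia markers 0.065 with 5 of 6, and endothelial markers -0.071 with 2 of 5, and the array medians of all 3 lists overlapped between the groups. The part of these cell types in the ribosomal protein result was not tested.

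Among single ribosomal protein genes the highest differences were those of Rpl13a (0.56, SE 0.22), a large subunit protein that also acts outside the ribosome, Rps27 (0.49, SE 0.19) and Rps9 (0.49, SE 0.16), both of the small subunit. At the low end were Rpl5 (-0.022, SE 0.20), which carries the 5S RNA into the large subunit, and Rps19 (0.0089, SE 0.22). The limma adjusted p of these 5 lay between 0.738 and 0.989. Rpl22 sat inside this spread, with 54 of the 77 genes below its stop-codon probe, and Rpl22l1 near its upper end, with 71 below. Set against the median of the 77 genes on each array, the genotype differences were 0.026 for the Rpl22 stop-codon probe, -0.0057 for the downstream probe and 0.099 for Rpl22l1. Exact two-sided permutation tests of these 3 comparisons gave p = 0.943, 0.971 and 0.543. These values depended on the processing, in a comparison across scalings added after seeing the data. Quantile normalization gave 0.075, 0.0997 and 0.11 in the same order. Adding a normexp background correction to it gave 0.10, 0.077 and 0.10. The authors' deposited values gave 0.17, 0.17 and 0.15, so the downstream probe changed sign under each of these. Exact two-sided permutation tests of these values gave p between 0.114 and 0.686.

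**Figure D4:**
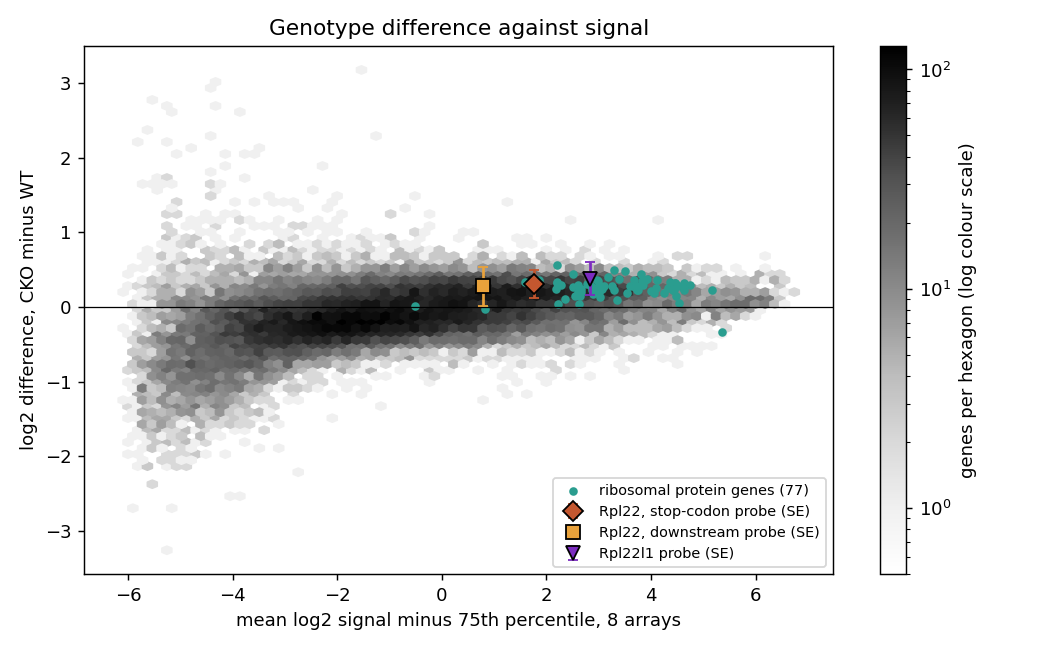
Log2 difference between CKO and WT (y axis) against mean log2 signal relative to the 75th percentile (x axis) for all 29529 genes (grey, log colour scale), the 77 ribosomal protein genes and the 3 member probes with their SE. Differences are lower for dim genes, and the members lie among bright genes, of which 70.3% are above 0.

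Rpl22l1 is 1 of several ribosomal protein paralogs, and with 75th percentile scaling the others lay on both sides of 0. Of 7 further paralogs 5 were tested, 3 above and 2 below 0, with a median of 0.074. Over all genes 41.5% were above 0, and 70.3% of those at least as bright as the dimmest member probe. The 2 paralogs below 0 were the dimmest, with WT means of -1.27 (Rpl7l1) and -3.42 (Rpl10l). The 3 above 0 had WT means from 1.02 to 1.99. Rps4l had 0.44 (SE 0.36), Rpl36al 0.36 (SE 0.25), Rps27l 0.074 (SE 0.19), Rpl7l1 -0.17 (SE 0.15) and Rpl10l -0.19 (SE 0.21), with limma adjusted p from 0.738 to 0.886. Rpl3l, known from muscle, and Rpl39l, known from testis, did not pass the filter on dim probes. Of 30 assembly factors of the large subunit, 20 (66.7%, beside the same shares) were above 0 and 10 below, with a median of 0.13. None was past the threshold, and 1, Pes1 of the PeBoW complex, was higher at an unadjusted limma p under 0.05 (0.49, SE 0.20, adjusted p = 0.738). The others named by rule were Gnl2, a GTPase of large subunit maturation, at 0.65 (SE 0.45), and at the low end Nle1 at -0.41 (SE 0.19) and Rpf1 at -0.38 (SE 0.32), with limma adjusted p from 0.738 to 0.741.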

How the data were processed

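The members and lists were chosen with earlier results of these data known. Per the file headers the deposited intensity values came from Agilent Feature Extraction (version 11.5 in the submitters' processing notes), with a red-channel processed signal that is background-subtracted and detrended, and probe coordinates of mm9. Per the labels the RNA was amplified as a whole transcriptome and labelled with Cy5. The authors also deposited a table of linear intensity per spot, whose normalization is not given in the sources used here. No spot was saturated and no member spot was flagged. Of 55681 probes that are not controls, 18 had no unflagged spot on some array. Each array's 75th percentile was subtracted from its log2 processed signals. A probe was tested if 4 or more of the 8 arrays read it well above background (44316 probes). Each was tested by itself with limma 3.58.1 in R 4.3.3 (lmFit, eBayes, two-sided, Benjamini-Hochberg over all probes, threshold 0.05). A gene outside the members was represented by its brightest probe (29529 genes). RefSeq names came from a GRCm38.p6 table, used for names alone. The rule for named genes took every member probe, the 3 highest and 3 lowest ribosomal protein genes, all paralogs, the 2 highest and 2 lowest assembly factors and the 5 genes most correlated with each member. A gene that the rule takes is not reported here. Simulated data with known changes were used to test the fit. Alternatives were other scalings (normexp with an offset of 50), the authors' values, filters, variance and array weights, slide, sex, the replicate number as a block, gene-level values and each array left out.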

Additional observations from a re-analysis of the deposited data

Results flagged for a closer look

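In groups of 4 mice, 16 sets of values were checked for a mouse whose gap to its neighbour took up most of the group's range, which chance gives in about 1 of 20 groups, and 2 were found. Both were values of the Rpl22 stop-codon probe: WT 4 at 1.84, whose gap was 0.873 of the WT range, and CKO 3 at 2.37, whose gap was 0.906 of the CKO range, both above Dixon's critical value for 4 samples. Both arrays lie on slide 3. A sex by genotype interaction was not detected for any member (limma, unadjusted p from 0.762 to 0.987), with 1 female per group and intervals wider than 1 on the log2 scale in each direction.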

How the results depend on the processing

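The 3 member differences kept their sign and stayed short of the threshold in every alternative that was run, from 0.16 to 0.45 for the Rpl22 stop-codon probe, 0.097 to 0.43 for the downstream probe and 0.22 to 0.52 for Rpl22l1, with limma adjusted p from 0.369 to 1.00. The downstream probe was the most dependent on single arrays, at 0.18 without WT 2 and without WT 3, 0.42 without WT 4 and 0.43 without CKO 1. Rpl22l1 was at 0.25 with quantile normalization. Over all probes 0 passed, but 5 did with normexp and quantile normalization (4 higher, 1 lower), 3 with no filter on dim probes (0 higher, 3 lower), 3 with probes well above background on all 8 arrays and 3 with a trended and robust variance (3 higher and 0 lower in both), 1 with the slide as a random block, 1 with 1 probe per gene, 1 with the mean of a gene's probes (each lower), and 0 to 1 with an array left out. None of these was a member, and the cause was not tested. The median of the ribosomal protein genes moved to 0.41 with median scaling, 0.13 with quantile normalization, 0.15 with normexp and quantile normalization, 0.099 with the authors' values and 0.15 within slide 3. Rpl22l1 minus Rpl22 within an array reversed to -0.027 with the authors' values (exact permutation p = 0.771). The downstream Rpl22 probe against the other ribosomal protein genes, at -0.0057, turned to 0.0997 and 0.077 under the quantile settings and to 0.17 with the authors' values. The r of Rpl22 with Rpl22l1 ran from 0.72 to 0.98 over 17 alternatives. The replicate numbers did not pair the mice (correlations of same-numbered mice from -0.39 to 0.34), and with the replicate number as a block 0 probes passed and the member differences were 0.31, 0.28 and 0.38 with limma adjusted p of 0.810.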
